A study of Homo sapiens with 6 samples.

Results

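Tumor growth in bone involves secreted factors, receptors, matrix proteins and a transcription factor of bone, and 8 genes that encode them were examined in MDA-MB-231 cells. They were taken by symbol: PTHLH, TNFSF11, TNFRSF11A, TNFRSF11B, SPP1, IBSP, SPARC and RUNX2, which are 8 of the 26255 symbols with values. MDA-MB-231 is a human triple-negative breast cancer line that forms osteolytic (bone-dissolving) lesions when placed in the bones of mice. The cells carried a lentiviral short hairpin RNA and were selected with puromycin. In shNT cells, the control, the hairpin was a scrambled sequence, and in shGPR81 cells it was directed against GPR81 (gene symbol HCAR1), a G protein-coupled receptor for lactate. Each group had 3 RNA-seq libraries of cultured cells, so no bone or host tissue was present. The study established a pair of GPR81 knockdown lines, and which hairpin the sequenced cells carried is not given in the sources used here. No source says that the libraries of a group came from separate cultures, so the p-values measure only the spread between these libraries.

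Bone is resorbed by osteoclasts, which form when RANK (TNFRSF11A) on their precursors binds RANKL (TNFSF11). Osteoprotegerin (TNFRSF11B) is a secreted decoy that captures RANKL. Parathyroid hormone-related protein (PTHLH), released by breast cancer cells, makes osteoblasts present more RANKL, and the growth factors set free from the matrix act back on the tumor. Osteopontin (SPP1) and bone sialoprotein (IBSP) are acidic phosphoproteins that bind bone mineral and integrins, SPARC is a collagen-binding matrix protein, and RUNX2 is the transcription factor that directs osteoblast formation and binds the promoters of bone matrix genes.

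Values are FPKM, fragments per kilobase of transcript scaled to library size, which allows levels of different genes to be set side by side. Of the 8 genes, 5 reached 0.1 FPKM in at least 3 of the 6 libraries and were tested, SPARC was above 0 but below that limit, and TNFSF11 and IBSP were listed at 0 in every library. A gene was called higher or lower when its Benjamini-Hochberg adjusted p in limma was under 0.05, over all 14349 genes tested, and its fold change exceeded 1.5. Fold changes are those of FPKM + 0.1 on the log2 scale, shGPR81 over shNT, and understate changes of low genes. Of the 5 tested genes, 1, SPP1, was called higher, against 0.955% of all genes tested. None of the 5 was called lower, against 1.59% of all genes, and at an unadjusted p under 0.05 limma also gave 1 higher and 0 lower. The share of all tested genes at an unadjusted p under 0.05 was not determined. Counts at that threshold, here and below, therefore have no background beside them and are a description only. The median log2 fold change of the 5 was -0.11, with 4 of 5 below 0, and that of all tested genes was 0.0081.

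The targeted gene was read first. HCAR1 was at 0.968, 1.02 and 1.36 FPKM in shNT and at 0.978, 0.891 and 0.396 FPKM in the libraries labelled shGPR81. The groups overlapped, with shGPR81 2 and shGPR81 3 below every shNT library and shGPR81 1 inside their range. Its log2 fold change was -0.57 (SE 0.31, limma adjusted p = 0.380), and the difference did not pass the test. In reads, 92 stood against 129, a depth-adjusted ratio of 0.677 (95% Clopper-Pearson interval 0.513 to 0.892, counting error only).

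The line's own markers were present. All 6 MDA-MB-231 markers examined, VIM, CD44, KRT18, KRT8, AXL and EGFR, were at 1 FPKM or more in every library. Of the receptors a triple-negative line lacks, ESR1 and PGR were listed at 0 and ERBB2 was at 10.6 to 12.6 FPKM. The osteoblast markers SP7, ALPL and SOST and the osteoclast fusion genes DCSTAMP and OCSTAMP were listed at 0 in all 6 libraries. The 6 osteoblast markers together summed to 1.40 to 2.12 FPKM in shNT and 1.01 to 1.68 in shGPR81, and the 7 osteoclast markers to 2.22 to 2.39 and 3.44 to 3.85. Of the osteoclast markers only ATP6V0D2, named after its values were seen, was higher without overlap, averaging 1.51 FPKM in shNT and 3.09 in shGPR81. The others had lower, overlapping or 0 values in shGPR81. A value of 0 is given as listed, since an FPKM of exactly 0 can also be a failed estimate. In bulk RNA, fewer cells that express a gene and less RNA per cell cannot be told apart. Relative depth, read from the steps between low FPKM values, ran from 1 to 1.07, or 11976450 to 12823191 reads per library with annotated transcript lengths.

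SPP1 and IBSP lie on the same arm of chromosome 4 and are both known as targets of RUNX2, but SPP1 was detected here and IBSP was listed at 0. The 250 bases before the start site of each are shown so that the 2 can be compared, 5′ to 3′ on the plus strand, from RefSeq (GRCh38.p14) and placed by match on GRCh37. Capitals mark the RUNX core motif ACCACA or its reverse complement TGTGGT. The windows are chr4:88896616-88896865 for SPP1 and chr4:88720456-88720705 for IBSP.
SPP1: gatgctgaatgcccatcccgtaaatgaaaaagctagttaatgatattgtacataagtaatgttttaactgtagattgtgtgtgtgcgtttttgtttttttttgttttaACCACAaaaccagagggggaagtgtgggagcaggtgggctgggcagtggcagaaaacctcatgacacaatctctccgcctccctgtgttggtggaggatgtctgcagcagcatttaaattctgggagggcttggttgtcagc
IBSP: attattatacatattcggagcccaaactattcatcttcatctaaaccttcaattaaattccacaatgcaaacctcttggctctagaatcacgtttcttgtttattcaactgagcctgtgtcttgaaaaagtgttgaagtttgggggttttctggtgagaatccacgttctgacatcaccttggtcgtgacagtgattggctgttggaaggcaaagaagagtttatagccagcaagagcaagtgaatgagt
The SPP1 window held 1 match, whose first base lay 142 bases before the start site, and the IBSP window held 0. On either strand, 3855 of 35116 promoters in the table, 10.98%, held a match in a window of this length. TNFRSF11A had 1 match and the first of the RUNX2 promoters had 2, and none was found for PTHLH, SPARC, TNFSF11 or the second RUNX2 promoter. A match of 6 letters is a description and not a binding site.

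PTHLH (chr12:28111017-28125666, minus strand, GRCh37) encodes the tumor-derived signal that starts the resorption cycle. It was expressed at a low level, with 1.05, 0.645 and 1.10 FPKM in shNT and 1.14, 0.686 and 0.733 FPKM in shGPR81. The highest value belonged to shGPR81 1 and the lowest to shNT 2, so the groups overlapped over their whole range. Means were 0.931 ± 0.249 (SD, n = 3) and 0.853 ± 0.250 FPKM (SD, n = 3). The log2 fold change was -0.11 (SE 0.26, limma adjusted p = 0.869), and its 95% interval of -0.72 to 0.49 spans folds of 0.607 to 1.41. This interval leaves out a rise of 1.5-fold but not a fall of that size.

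The receptor of PTHrP and the regulators of its gene and signal were read beside PTHLH. Of 16 such genes, 3 were listed at 0 in every library (PTH, PTH2 and PTH2R) and 13 were tested. Limma called 0 higher and 0 lower, with 1 higher and 2 lower at an unadjusted p under 0.05. Over all tested genes 0.955% were called higher and 1.59% lower, so 0 calls in a list this short are a description only. The same shares apply to the calls in the lists below. Their median log2 fold change was -0.03. Groups did not overlap for 2 genes on the higher side and 4 on the lower side, where the shares over all tested genes were 12.9% and 12.7%. GLI1, counted on the higher side and named after its values were seen, met the filter through the shGPR81 libraries alone. The 3 genes of this list with the highest levels were GNAS, ETS1 and TGFBR2. GNAS, the stimulatory G protein subunit through which the receptor raises cyclic AMP, averaged 708 ± 68.5 FPKM (SD, n = 3) in shNT and 557 ± 33.6 in shGPR81, and its log2 fold change of -0.34 (SE 0.08) had a limma adjusted p of 0.0631. GNAS lies on chromosome 20, where the 253 genes averaging 5 FPKM or more had a median log2 fold change of -0.40. The part of that shift in GNAS was not tested. TGFBR2, a receptor for the TGF-beta that bone matrix releases, was at 51.9 and 49.6 FPKM on average (log2 fold change -0.07), and ETS1, a transcription factor that acts on the PTHLH promoter, at 46.5 and 48.3 FPKM (0.06). Neither passed the test in limma, with adjusted p = 0.507 for TGFBR2 and 0.681 for ETS1.

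TNFSF11 (chr13:43136872-43182149, plus strand) encodes RANKL and was listed at 0 in all 6 libraries. From its longest annotated transcript, 1 read in shNT 1 was estimated at 0.0379 FPKM. Such an estimate can be too low: 1 recovered read of ACP5 in shNT 1 was at 0.0572 FPKM, where the estimate was 0.0253. Its receptor and its decoy were both detected. TNFRSF11A (chr18:59992520-60058521, plus strand), the receptor RANK, was at 2.16, 2.86 and 2.56 FPKM in shNT and at 2.21, 2.02 and 2.42 FPKM in shGPR81. The groups overlapped, although the 2 highest values were those of shNT 2 and shNT 3. Means were 2.53 ± 0.346 and 2.21 ± 0.202 FPKM (SD, n = 3 each), and the log2 fold change was -0.18 (SE 0.14, 95% interval -0.49 to 0.14, limma adjusted p = 0.555).

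TNFRSF11B (chr8:119935796-119964124, minus strand), the decoy osteoprotegerin, was at 4.85, 3.90 and 4.94 FPKM in shNT and at 3.42, 4.30 and 4.26 FPKM in shGPR81. Here too the groups overlapped, since shNT 2 lay below 2 of the shGPR81 libraries. Its means, 4.56 ± 0.575 and 3.99 ± 0.497 FPKM (SD, n = 3 each), gave a log2 fold change of -0.19 (SE 0.13, 95% interval -0.50 to 0.12, limma adjusted p = 0.518). The FPKM steps gave whole reads for this gene, 143, 118 and 146 in shNT and 108, 134 and 133 in shGPR81. In all, 375 reads stood against 407, a depth-adjusted ratio of 0.875 (95% Clopper-Pearson interval 0.758 to 1.01, counting error only). For RANK and osteoprotegerin the intervals of the fold, 0.710 to 1.10 and 0.706 to 1.09, leave out both a rise and a fall of 1.5-fold.

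Genes that act downstream of RANK were all detected, with means over the 6 libraries from 2.07 FPKM (CYLD, named after its values were seen) to 201 FPKM (SQSTM1). All 20 adaptors, kinases and transcription factors listed, with LGR4, another receptor of RANKL, were tested, and limma called 0 higher and 0 lower, with 3 higher and 0 lower at an unadjusted p under 0.05. The median log2 fold change was 0.05. Groups did not overlap for 5 genes on the higher side and 1 on the lower side, where the shares over all tested genes were 12.9% and 12.7%. JUN, a subunit of the AP-1 factor that RANK activates, was at 41.0, 45.4 and 45.0 FPKM in shNT and 52.8, 53.7 and 59.6 in shGPR81. All 3 shGPR81 libraries lay above all shNT libraries, and the log2 fold change of 0.34 (SE 0.07, limma adjusted p = 0.0326) did not reach the fold threshold. Genes with an adjusted p under 0.05 at any fold made up 2.06% of all tested genes on the higher side, and JUN was 1 of 20 here. SQSTM1, the p62 scaffold that binds TRAF6, had a log2 fold change of 0.17 (limma adjusted p = 0.305), and RELA, a subunit of NF-kB, of 0.05 (adjusted p = 0.815).

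Osteoprotegerin also binds TRAIL (TNFSF10), and the TRAIL receptors were read beside it. Of these 5 genes 1 was called lower and 0 higher, where 1.59% and 0.955% of all tested genes were called. TNFRSF10C, a TRAIL receptor that lacks the death domain, fell from 2.05, 2.07 and 2.30 FPKM in shNT to 1.56, 1.11 and 1.21 FPKM in shGPR81. Every shGPR81 library lay below every shNT library, as for 12.7% of all tested genes. The log2 fold change was -0.70 (SE 0.15, limma adjusted p = 0.0450). This call was lost without any single library other than shGPR81 1, at adjusted p = 0.0562, 0.136 and 0.116 without shNT 1, 2 and 3 and 0.145 and 0.140 without shGPR81 2 and 3. It was also lost without a filter (0.0829), with a replicate block (0.0737), with a pseudocount of 1 FPKM (log2 fold change -0.46) and under treat, so that 5 of 14 other settings kept it in limma. The death receptors TNFRSF10B and TNFRSF10A had log2 fold changes of -0.07 and -0.07 and the decoy TNFRSF10D of 0.05, each with overlapping groups. TNFSF10 itself had a log2 fold change of 0.24 (limma adjusted p = 0.753), also with overlapping groups. The median of the 5 was -0.07.

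**Figure D1:**
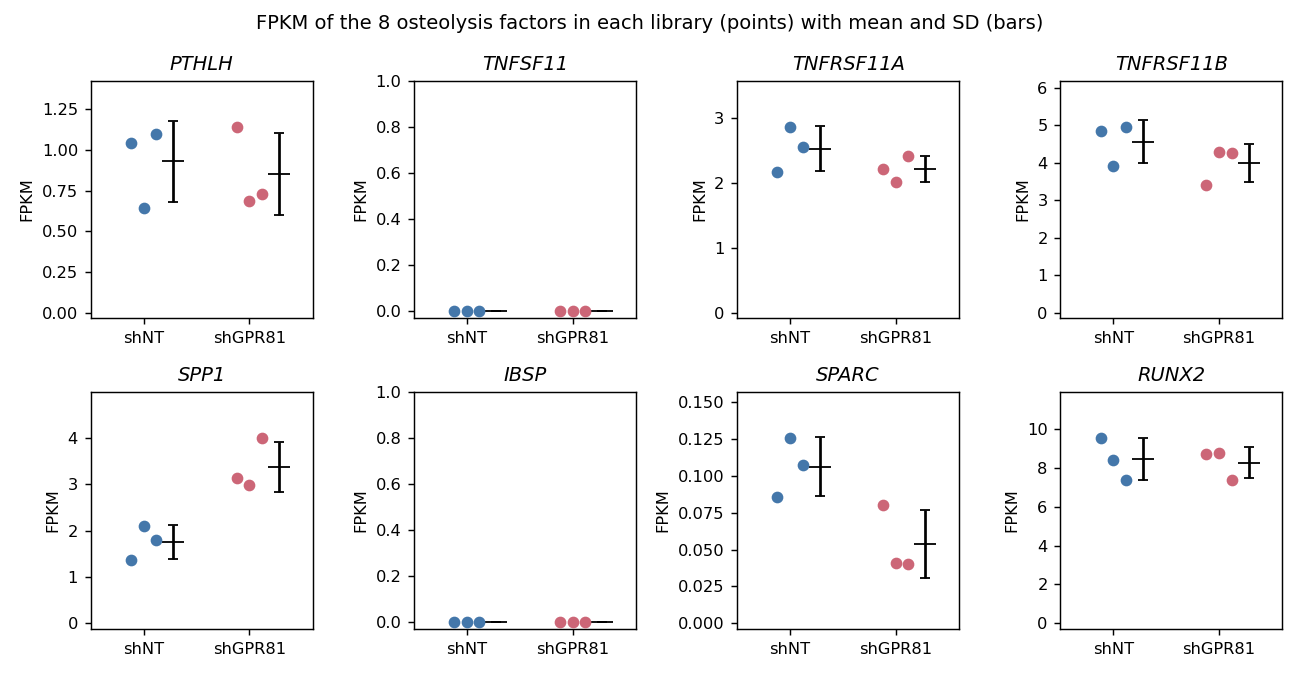
FPKM (vertical axes, linear, from 0) of the 8 genes in each library, with shNT and shGPR81 on the horizontal axes; points are libraries and bars the mean and SD of 3. SPP1 is the only gene whose shGPR81 points all lie above the shNT points, SPARC the only one whose shGPR81 points all lie below, and TNFSF11 and IBSP are at 0.

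SPP1 (chr4:88896819-88904684, plus strand) encodes osteopontin, which anchors osteoclasts to mineral and binds CD44 and the alpha-v integrins on tumor cells. Its level was 1.37, 2.09 and 1.79 FPKM in shNT and 3.13, 2.98 and 3.99 FPKM in shGPR81. The lowest shGPR81 library was above the highest shNT library, as it was for 12.9% of all genes tested. Means were 1.75 ± 0.363 and 3.37 ± 0.545 FPKM (SD, n = 3 each). SPP1 rose by 0.91 on the log2 scale (SE 0.18, limma adjusted p = 0.0313), a fold of 1.88 with a 95% interval of 1.41 to 2.52. An exact two-sided permutation test of the same 3 against 3 libraries gave p = 0.1, the smallest p that it can give.

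The SPP1 difference kept its direction, and its call was not stable. Over 14 other settings the log2 fold change lay between 0.67 and 1.05. The other filters, treat and the replicate block cannot change this value in this design, so they bear only on the call. The call was lost when genes were not filtered (adjusted p = 0.0631) and when limma's treat tested the fold against 1.5 (adjusted p = 1). It was also lost when a single library other than shNT 1 was left out, with adjusted p = 0.0512 without shNT 2, 0.0632 without shNT 3, 0.0916 without shGPR81 1, 0.0739 without shGPR81 2 and 0.101 without shGPR81 3. Reads could not be recovered for SPP1, which has 26 annotated transcripts.

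**Figure D2:**
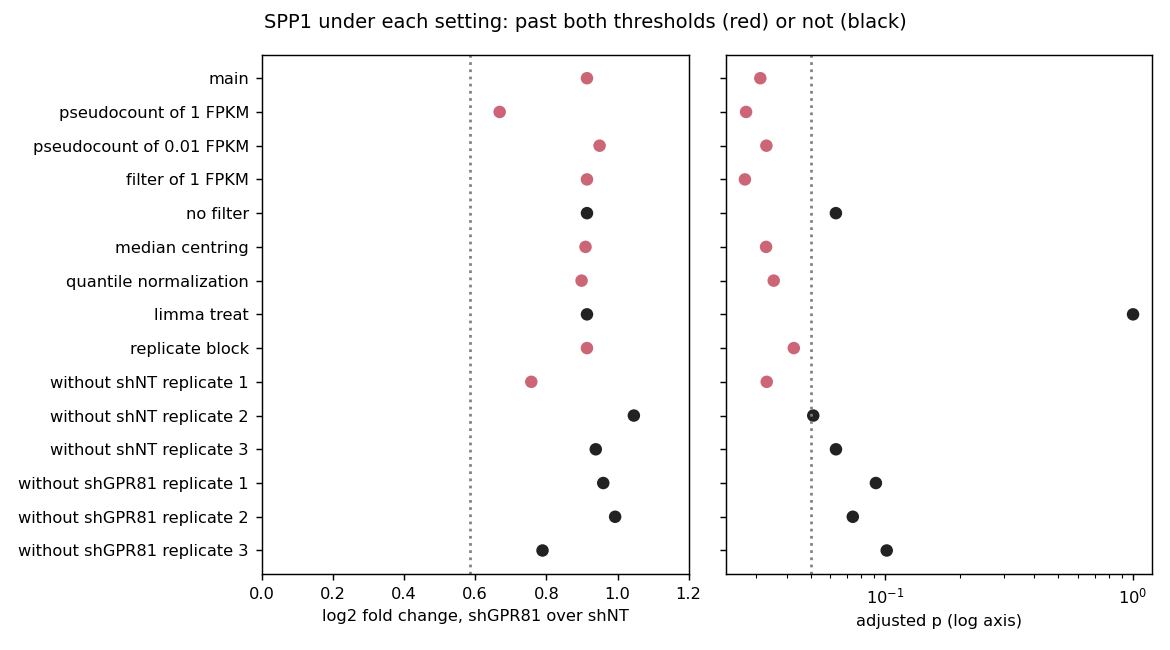
SPP1 under the reported fit (main) and 14 other settings, with the log2 fold change of shGPR81 over shNT (left, linear axis) and the limma adjusted p (right, log axis). Red points passed both thresholds (dotted lines) and black points did not; the fold change ranges from 0.67 to 1.05, and 7 of the 14 settings lose the call.

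The other small integrin-binding phosphoproteins were not measured above 0. IBSP (chr4:88720706-88733587, plus strand), bone sialoprotein, was listed at 0 in all 6 libraries, and so were its neighbors DSPP, DMP1 and MEPE, which encode proteins of dentin and bone matrix. SPP1 is next to MEPE in the same cluster. On the other side of SPP1 both nearest listed genes were expressed. PKD2, a cation channel, was at 5.56 ± 0.871 and 6.86 ± 0.399 FPKM (SD, n = 3 each; log2 fold change 0.31, limma adjusted p = 0.224). ABCG2, a drug efflux transporter, averaged 8.34 ± 0.404 and 6.002 ± 0.372 FPKM, so that its log2 fold change, -0.47 (limma adjusted p = 0.0177), had the other sign and stayed below the fold threshold. These neighbors were named after their values were seen. On chromosome 4 the 277 genes averaging 5 FPKM or more had a median log2 fold change of 0.0044.

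The receptors of osteopontin did not move as a group. Of 14 genes for other phosphoproteins of the family, their kinase and the receptors, 3 were listed at 0, 3 were below the limit and 8 were tested, with 0 called higher and 0 lower in limma (1 higher and 3 lower at an unadjusted p under 0.05). The median log2 fold change was -0.08. At any fold, the adjusted p was under 0.05 for 1 of the 8 on the higher side and 2 on the lower side. The shares over all tested genes at any fold were 2.06% and 3.07%. In each of these list genes the fold was below 1.5. ITGB5, a beta subunit that pairs with alpha-v, was the higher one, at 45.3, 51.2 and 53.7 FPKM in shNT and 64.9, 63.9 and 67.1 in shGPR81 (log2 fold change 0.38, SE 0.07, limma adjusted p = 0.0217). ITGB3, another partner of alpha-v, and FAM20C, the kinase that phosphorylates these proteins, were the lower ones and were named after their values were seen. ITGB3 was at 8.35, 7.43 and 7.57 FPKM in shNT and 6.02, 5.91 and 5.41 in shGPR81 (-0.42, SE 0.08, adjusted p = 0.0311 in limma), and FAM20C at 23.8, 29.4 and 29.6 FPKM and 18.8, 18.5 and 20.8 (-0.50, SE 0.10, adjusted p = 0.0293). The alpha-v subunit itself, ITGAV, had overlapping groups (-0.09, adjusted p = 0.779 in limma). CD44, the hyaluronan and osteopontin receptor, was at 175 ± 4.23 and 153 ± 4.49 FPKM (SD, n = 3 each) with a limma adjusted p of 0.0566. ITGB1 was at 478 and 482 FPKM on average.

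SPARC (chr5:151040657-151066536, minus strand), also called osteonectin, was close to the limit of detection. It was at 0.0857, 0.126 and 0.107 FPKM in shNT and at 0.0801, 0.0406 and 0.0405 FPKM in shGPR81, which corresponds to 4, 6 and 5 reads against 4, 2 and 2. The shGPR81 values all lay below the shNT values, as they did for 12.7% of all genes tested, but the nearest libraries of the 2 groups, shNT 1 and shGPR81 1, held 4 reads each. In total 8 reads stood against 15, a depth-adjusted ratio of 0.507 with a 95% Clopper-Pearson interval of 0.186 to 1.27. The exact permutation test gave p = 0.1, the smallest possible, and without a filter the log2 fold change from limma was -0.43 (SE 0.17, adjusted p = 0.288). A difference in SPARC was not detectable at this depth.

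Of 7 genes related to SPARC, 1 was listed at 0, 3 were below the limit and 3 were tested, with 0 called in either direction by limma and 1 higher at an unadjusted p under 0.05. SPOCK3, a secreted proteoglycan, was at 1.251, 1.051 and 1.249 FPKM in shNT and 1.82, 2.35 and 1.66 in shGPR81, groups that did not overlap (log2 fold change 0.66, SE 0.16, limma adjusted p = 0.0681). SPOCK1 and FSTL1 had log2 fold changes of 0.10 and 0.09. The median of the 3 was 0.10.

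RUNX2 (chr6:45295894-45632086, plus strand) was the most abundant of the 8 genes. It was at 9.52, 8.40 and 7.38 FPKM in shNT and at 8.70, 8.76 and 7.35 FPKM in shGPR81. The shGPR81 values lay almost entirely inside the range of shNT, with shGPR81 3 just below it. Means were 8.43 ± 1.07 and 8.27 ± 0.798 FPKM (SD, n = 3 each), and the log2 fold change of -0.03 (SE 0.12, limma adjusted p = 0.936) had a 95% interval of -0.30 to 0.24, or folds of 0.815 to 1.18. RUNX2 overlaps SUPT3H on the opposite strand, which was at 6.01 to 6.58 FPKM. The strand setting of the counting is not given in the sources used here, so reads of the 2 genes may be mixed.

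Osteoblast genes did not accompany RUNX2. Of 16 RUNX factors, partners and osteoblast genes, 7 were listed at 0, among them SP7 and ALPL, 1 was below the limit, and 8 were tested, with 0 called in either direction by limma and 0 higher and 1 lower at an unadjusted p under 0.05. CBFB, the subunit that stabilizes RUNX proteins on DNA, averaged 28.5 ± 1.01 and 28.2 ± 0.240 FPKM (SD, n = 3 each), a log2 fold change of -0.02. ATF4, a known regulator of osteoblast genes, also had overlapping groups (-0.02). The median of the 8 was -0.01. Of 5 calcium-sensing and vitamin D genes, CASR was listed at 0 and 4 were tested, with 0 called by limma in either direction and 2 higher and 1 lower at an unadjusted p under 0.05 (median 0.11). VDR, the vitamin D receptor, was at 4.70, 5.14 and 4.92 FPKM in shNT and 3.50, 3.07 and 3.67 in shGPR81, and its log2 fold change of -0.52 (SE 0.10, limma adjusted p = 0.0275) stayed below the fold threshold. RXRA, its partner, had 0.37 (adjusted p = 0.0983 in limma), and CYP27B1, which activates vitamin D, -0.15 (adjusted p = 0.784).

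The order of levels among the genes changed at 1 place between the groups. In shNT the order by mean was RUNX2, TNFRSF11B, TNFRSF11A, SPP1, PTHLH and SPARC, and the ranges of all neighbors in that order were apart. In shGPR81 it was RUNX2, TNFRSF11B, SPP1, TNFRSF11A, PTHLH and SPARC, so that osteopontin stood above RANK, and the ranges of TNFRSF11B and SPP1 overlapped. Over all 6 libraries RUNX2 was above 59.6% of expressed genes, TNFRSF11B above 48.9%, SPP1 above 42.3%, TNFRSF11A above 41.5%, PTHLH above 32.9% and SPARC above 17.2%.

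Genes chosen for links to bone colonization or osteolysis formed the largest list and the one with the most calls. The lists were chosen with earlier results of these data known, so the counts are a description and no evidence of enrichment. Of 28 genes, TNF was listed at 0 and 27 were tested, of which 6 were called lower, CXCR4, MMP1, JAG1, CSF2, CCL2 and TGFB2, and 0 higher, where 1.59% and 0.955% of all tested genes were called. At an unadjusted p under 0.05 limma gave 12 lower and 3 higher, counts for which the share over all tested genes was not determined. The median log2 fold change was -0.11, with 18 of 27 below 0, and groups did not overlap for 14 genes on the lower side and 4 on the higher side, as for 12.7% and 12.9% of all tested genes. Over all 8 lists, 7 of 88 tested genes were called lower and 0 higher, with a median of -0.02. The counts of 6 and 7 include CCL2, which met the filter through the shNT libraries alone. MMP9, tested but not called, met it in the same way.

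CSF2 encodes GM-CSF, a cytokine of myeloid cells from which osteoclasts derive. It fell from 8.67, 8.21 and 8.53 FPKM in shNT to 2.93, 2.85 and 2.97 FPKM in shGPR81. The groups were far apart, and the log2 fold change was -1.51 (SE 0.08, limma adjusted p = 0.00028). In reads, 74 stood against 204, a depth-adjusted ratio of 0.344 (95% Clopper-Pearson interval 0.260 to 0.452). JAG1, a Notch ligand through which tumor cells act on osteoblasts and osteoclasts, fell from 43.3, 43.97 and 43.3 FPKM to 23.9, 23.5 and 23.4 FPKM. The spread within each group was under 1 FPKM, and the log2 fold change was -0.88 (SE 0.05, limma adjusted p = 0.00029). JAG1 lies on chromosome 20, whose median of -0.40 is given above, and the part of that shift in JAG1 was not tested. TGFB2, a member of the TGF-beta family, fell from 11.7, 10.7 and 10.9 FPKM to 5.86, 7.01 and 6.79 FPKM. Its groups did not overlap, and the log2 fold change was -0.76 (SE 0.09, limma adjusted p = 0.0039). CSF2 and JAG1 kept their call in 14 of 14 other settings, and TGFB2 in 13 of 14, the exception being limma's treat.

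The other 3 calls did not hold without every single library. MMP1, a collagenase, fell from 3.10, 2.50 and 1.92 FPKM in shNT to 1.17, 0.972 and 1.19 FPKM in shGPR81, without overlap (log2 fold change -1.09, SE 0.19, limma adjusted p = 0.0183). Its adjusted p in limma was 0.0855 without shNT 2, 0.0634 without shGPR81 1, 0.0762 without shGPR81 2 and 0.0540 without shGPR81 3, and 9 of 14 other settings kept its call, treat not among them. CXCR4, the chemokine receptor that guides cells to marrow, fell from 0.643, 0.724 and 0.790 FPKM to 0.185, 0.234 and 0.0467 FPKM, or from 44 to 10 reads (log2 fold change -1.76, SE 0.33, limma adjusted p = 0.0263). The read ratio was 0.216 (95% Clopper-Pearson interval 0.0969 to 0.435), and the call was lost without shNT 2 (adjusted p = 0.108), shNT 3 (0.0773) or shGPR81 1 (0.0668) in limma. It was also lost with a pseudocount of 0.01 FPKM (0.0606), with a pseudocount of 1 FPKM (log2 fold change -0.58), with a replicate block (0.0502) and under treat, and 6 of 13 other settings kept it. CCL2, a monocyte chemoattractant, was at 0.807, 0.131 and 0.806 FPKM in shNT and was listed at 0 in all 3 shGPR81 libraries, 13 reads against 0. CCL2 met the filter through the shNT libraries alone, so only a lower call was possible and its test is no support for a difference. It passed the test (limma adjusted p = 0.0428) but not when shGPR81 1 (0.130), shGPR81 2 (0.128) or shGPR81 3 (0.115) was left out in limma, and it fell below the filter when any shNT library was left out. Its call was also lost without a filter (limma adjusted p = 0.0674), with a replicate block (0.0541), with a pseudocount of 1 FPKM (0.0958) and under treat, and 3 of 10 other settings kept it.

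IL6 and IL11, interleukins known to promote osteolysis that the study measured beside PTHrP, did not pass the test here. IL6 was at 0.891, 0.507 and 0.816 FPKM in shNT and 0.277, 0.421 and 0.281 FPKM in shGPR81, with 30 reads against 14. Its groups did not overlap, and the log2 fold change was -0.96 (SE 0.26, 95% interval -1.57 to -0.35, limma adjusted p = 0.0879). IL11 was among the more abundant secreted factors, at 83.3, 100.2 and 90.1 FPKM in shNT and 80.6, 73.9 and 77.8 FPKM in shGPR81. These groups did not overlap either, and the log2 fold change was -0.23 (SE 0.07, limma adjusted p = 0.138). The most abundant genes of the list were CYR61 and CTGF, matricellular proteins, and SRGN, the proteoglycan serglycin. CYR61 averaged 459 ± 16.8 and 401 ± 15.5 FPKM (SD, n = 3 each; log2 fold change -0.20, limma adjusted p = 0.0911), and CTGF 231 ± 14.5 and 264 ± 10.99 FPKM (0.19, adjusted p = 0.132 in limma). SRGN had a log2 fold change of 0.08.

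**Figure D3:**
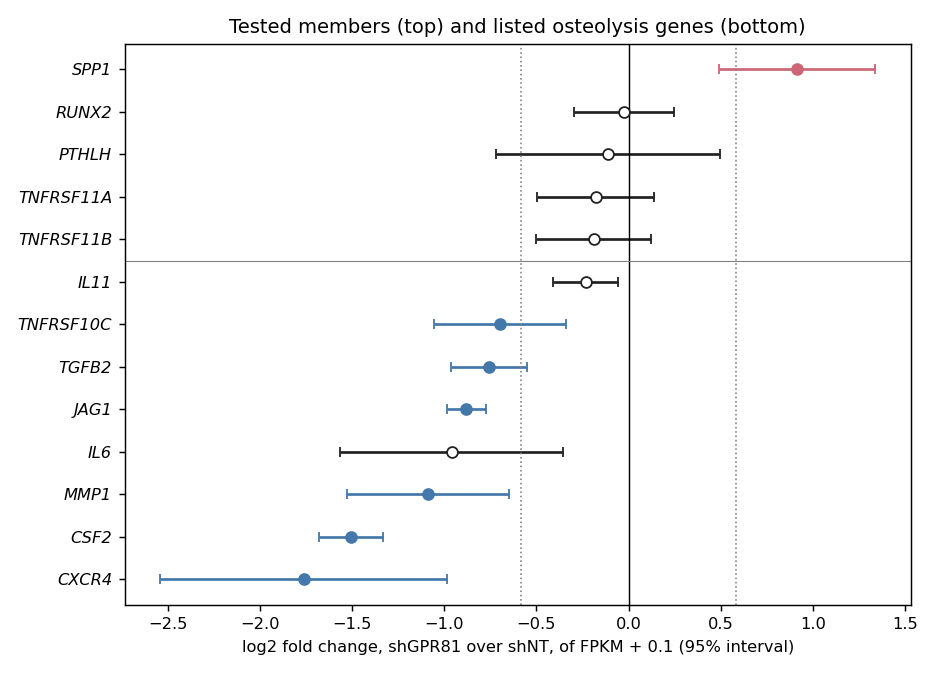
Log2 fold change of FPKM + 0.1, shGPR81 over shNT, with its 95% interval from limma, for the 5 tested osteolysis genes (above the line) and the called genes of the lists with IL6 and IL11 (below it); CCL2, listed at 0 in shGPR81, is left out. Filled points passed both thresholds, red for higher and blue for lower; SPP1 lies at 0.91 and the intervals of the other 4 of the 5 include 0.

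CSF1 and DKK1 were named after their values were seen, as the other genes of the list with an adjusted p under 0.05. CSF1, the macrophage growth factor that osteoclast precursors need beside RANKL, was at 47.1, 54.8 and 54.9 FPKM in shNT and 65.2, 65.5 and 69.6 FPKM in shGPR81 (log2 fold change 0.36, SE 0.07, limma adjusted p = 0.0327). DKK1, a secreted inhibitor of Wnt signaling that restrains osteoblasts, was at 47.7, 43.6 and 43.2 FPKM and 35.9, 36.9 and 38.0 FPKM (-0.28, SE 0.06, adjusted p = 0.0358 in limma). Both lay below the fold threshold, with groups that did not overlap.

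**Figure D4:**
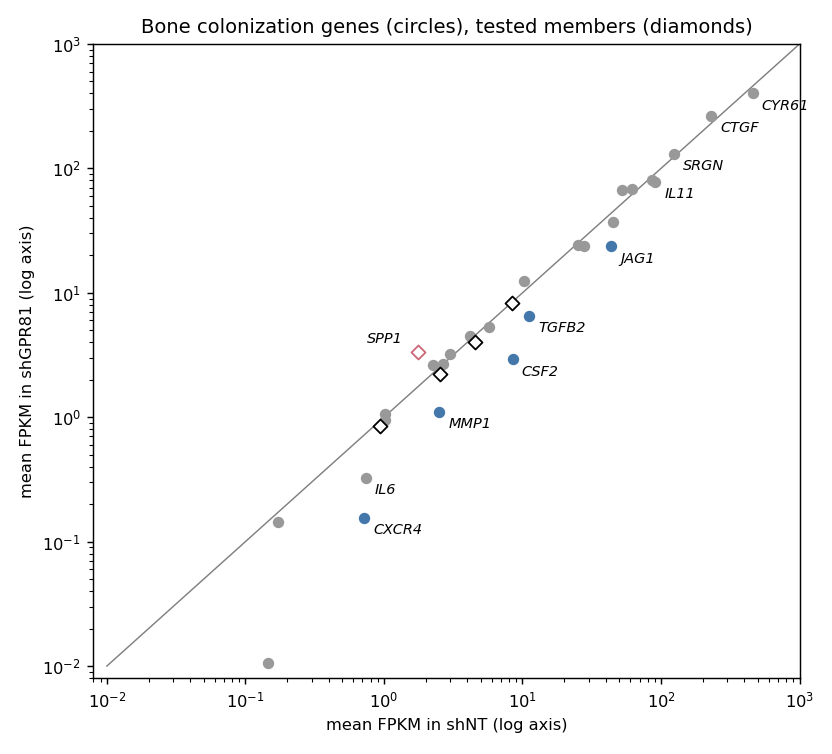
Mean FPKM in shNT (horizontal, log axis) and shGPR81 (vertical, log axis) of bone colonization genes above 0 in both groups (circles; blue were called lower) and of the 5 tested osteolysis genes (diamonds; red was called higher). The line marks equal levels; CSF2, JAG1, TGFB2, MMP1 and CXCR4 lie below it and SPP1 above it.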

How the data were processed

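RNA-seq of MDA-MB-231 cells was analyzed, 3 libraries labelled shNT and 3 labelled shGPR81. TruSeq stranded mRNA libraries were read by the authors as single-end reads of 75 bases. The submitters' processing notes name TopHat2 2.0.13, Bowtie2 2.2.3, SAMtools 0.1.19 and Cuffnorm 2.2.1. The paper states the human genome hg19 and the deposited text the mouse genome; human symbols are listed, so coordinates are of GRCh37 (GENCODE release 44). The deposited values are FPKM, made by the authors, 1 per symbol and library.

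Log2(FPKM + 0.1) was fitted in limma 3.58.1 (R 4.3.3; lmFit, eBayes with trend, two-sided, no block) over the 14349 genes that reached 0.1 FPKM in 3 or more of the 6 libraries, with Benjamini-Hochberg adjustment. The members and lists were chosen with earlier results of these data known. Named genes are the 8 members, HCAR1, IL6, IL11 and, of each list, every called gene and the 3 with the highest mean, and for members at a mean of 1 FPKM or more the 3 genes most alike; others are marked in the text, and some genes under this rule are not reported here. Whole reads were recovered where the 6 values were multiples of 1 step within a tolerance of 1e-04 and up to 300 reads, for 4855 of 15931 genes; read intervals cover counting error only. On simulated FPKM of 14139 genes for this comparison, 92 of 100 genes with a log2 change of 1 and 99 of 100 with a change of 2 were called, and 5 unchanged genes. The simulated noise was normal and independent, and the changed genes all averaged 1 FPKM or more. These rates therefore do not cover lower genes such as PTHLH, HCAR1, IL6, CXCR4 and CCL2. Alternatives were the pseudocount, the filter, the scaling, limma's treat, a replicate block and leaving out each library.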

Additional observations from a re-analysis of the deposited data

How the results depend on the processing

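All 14 alternatives kept the direction of TNFRSF11A, TNFRSF11B and SPP1, and TNFRSF11A and TNFRSF11B were called in none. The other filters, treat and the replicate block cannot change the log2 fold change of a gene here, so they bear only on its call. SPP1 had a log2 fold change of 0.91 and lost its call without a filter and under limma's treat (0.91 in both, with adjusted p = 0.0631 and 1). Leaving out each library in turn gave 0.76 to 1.05 for SPP1, called only without shNT 1. PTHLH ran from -0.33 to 0.013 and turned positive without shNT 3 (0.013) and without shGPR81 2 (0.010). RUNX2 ran from -0.12 to 0.065 and turned positive without shNT 1 (0.065) and without shGPR81 3 (0.056); neither gene was called in any of these. The cause was not tested.

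Over all tested genes 228 were called lower and 137 higher, 142 and 75 with a pseudocount of 1 FPKM, 46 and 9 under treat, and 110 to 238 and 68 to 156 without single libraries; the lowest counts came without shNT 2 (110 lower) and without shGPR81 2 (68 higher). Of the 88 tested list genes 7 were called lower, 4 with a pseudocount of 1 FPKM, 2 under treat and 3 to 6 without single libraries (3 without shNT 2), and 0 higher in every alternative. List medians moved for PTHrP regulators (-0.057 without shGPR81 1 to 0.0054 without shNT 3), RANK signaling (-0.0026 without shGPR81 3 to 0.063), SPARC relatives (-0.056 with no filter, 0.075 to 0.19 without single libraries), bone colonization genes (-0.061 with a filter of 1 FPKM) and vitamin D genes (-0.072 with that filter). Other scaling moved the median of all tested genes from 0.0081 to 0.0040 or 0.00051.

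Replicate numbers were not treated as a pairing: deviations of same-numbered libraries correlated at 0.12, 0.022 and 0.0058 across genes, and only those numbered 1 matched each other best. With the replicate block SPP1 stayed called (0.91, limma adjusted p = 0.0427), 197 genes were called lower and 115 higher, and 4 list genes lower, with CXCR4, CCL2 and TNFRSF10C no longer called. SPARC and CCL2 are limited by depth. A filter of 1 FPKM gave no value for CXCR4, IL6, HCAR1 or CCL2, leaving out an shNT library none for CCL2, and treat no list medians.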

Other observations

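Genes whose log2 values followed the members most closely over the 6 libraries were read as a description, among 11676 genes averaging 1 FPKM or more. For SPP1 these were ETV5 (Pearson r 0.996), ZSWIM7 (0.994) and TOM1L2 (0.993), whose own log2 fold changes were 0.11, 0.35 and 0.13. For RUNX2 they were ZNF614 (0.996), CLASP2 (0.995) and GK (0.995). For TNFRSF11A they were PINX1 (0.990), PPAN (0.987) and SLC2A4RG (0.987), and for TNFRSF11B ATP2B4 (0.977), RAB31 (0.976) and BMS1 (0.973). The 6 points come from 2 groups, and no test was made.

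Among the markers of other cell types, ATP6V0D2, a subunit of the proton pump that osteoclasts use and a gene named after its values were seen, rose from 1.54, 1.44 and 1.54 FPKM in shNT to 3.13, 3.04 and 3.11 FPKM in shGPR81 (limma adjusted p = 0.0024). Other osteoclast markers had lower or overlapping values in shGPR81. ACP5 averaged 0.132 FPKM in shNT and 0.0359 in shGPR81 (7 reads against 2), and CALCR 0.0498 and 0.0203 FPKM. MMP9 averaged 0.146 and 0.0106 FPKM (13 reads against 1, limma adjusted p = 0.102). Their groups did not overlap, as for 12.7% of all tested genes on the lower side. For ACP5 the nearest libraries held 1 read each, and for CALCR they were at 0.0420 (shNT 2) and 0.0406 FPKM (shGPR81 3). MMP9 met the filter through shNT alone, and ACP5 and CALCR were below it. CTSK averaged 0.493 and 0.496 FPKM, with overlap. Of the leukocyte markers ITGAM and CD3E were listed at 0 and PTPRC was at most 0.0286 FPKM. The sum of the 6 leukocyte markers, 79.6 to 103.9 FPKM in shNT and 112 to 131 FPKM in shGPR81, was mostly CD68, which a wide range of cells express (limma adjusted p = 0.0691). CD14 had the other direction, with 2.24, 4.29 and 3.62 FPKM in shNT and 1.74, 1.14 and 1.58 FPKM in shGPR81 (log2 fold change -1.10, limma adjusted p = 0.0562), and CSF1R averaged 0.924 and 0.990 FPKM with overlapping groups.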
